A study of Homo sapiens with 12 samples.

Results

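Cytosolic ribosomal protein genes were described across RBE cells, an established human intrahepatic cholangiocarcinoma line, treated with an inhibitor of mutant IDH1, with an activator of p53, with both or with neither. The members are the 77 protein-coding entries, of 55773 gene entries in all, whose symbol is RPL or RPS with digits and at most one trailing A or X, together with RPLP0, RPLP1, RPLP2 and RPSA. Of these, 46 belong to the large and 31 to the small subunit, and RPL32 and RPS2, given as markers of the group, are both among them. Copies whose symbol ends in L, copies on the Y chromosome and the RPS6K kinases are left out by the same rule. Of the 77, 76 passed the filter on low counts and were tested.

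Poly(A) RNA was sequenced in 12 libraries, 3 for each of 4 groups of the same line. AG120_Nutlin cells received 5 µM AG-120 over 22 days, with 5 µM Nutlin added for 72 hours, and vehicle_Nutlin cells received DMSO over the same 22 days with the same Nutlin. AG120 cells received AG-120 without Nutlin, and vehicle cells received DMSO without either drug. AG-120 (ivosidenib) inhibits mutant IDH1 and so blocks production of 2-hydroxyglutarate, and Nutlin keeps MDM2 from binding p53 and so activates p53. Nothing in the labels tells whether replicates came from separate cultures, so p-values measure only the spread between these libraries, which may be technical, and every group rests on 1 cell line.

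A ribosome is built from ribosomal RNA and a matched set of ribosomal proteins, so growing cells make the ribosomal protein mRNAs in large amounts. These mRNAs begin with a 5′ terminal oligopyrimidine (TOP) tract, a C followed by an unbroken run of C and U, through which mTORC1 and LARP1 control their translation and stability. The proteins are also tied to p53: when ribosome assembly is disturbed, a particle of RPL5, RPL11 and 5S ribosomal RNA binds MDM2 and keeps it from degrading p53, which is the same partner that Nutlin blocks.

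Start-site windows are printed for members on which the results turn, to show which of them carry a tract of C and T near the annotated start. Each window is 30 bases of RefSeq sequence (GRCh38.p14, sense strand, 5′ to 3′), 15 before the annotated start and 15 from the start on, and capitals mark a tract of at least 5 bases: a C within 5 bases of the start and the run of C and T it opens. RPS19, RPS27 and RPS4X were higher with Nutlin in both backgrounds, RPSA and RPL11 were lower with Nutlin in AG-120 cells, RPL32 and RPL29 were lower with AG-120 among Nutlin-treated cells, and RPS27L is a copy of RPS27 outside the member rule.
RPS19: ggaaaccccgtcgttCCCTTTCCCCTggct
RPS27: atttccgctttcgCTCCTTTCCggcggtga
RPS4X: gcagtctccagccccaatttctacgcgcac
RPSA: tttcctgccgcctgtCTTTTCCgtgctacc
RPL11: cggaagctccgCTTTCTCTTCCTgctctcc
RPL32: ggtgaggtgacccttgaCCTCCTgggatcg
RPL29: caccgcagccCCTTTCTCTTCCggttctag
RPS27L: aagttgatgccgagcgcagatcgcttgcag
These windows lie at chr19:41860240-41860269 (RPS19), chr1:153990747-153990776 (RPS27), chrX:72277234-72277263 (RPS4X, minus strand), chr3:39406705-39406734 (RPSA), chr1:23691791-23691820 (RPL11), chr3:12840436-12840465 (RPL32, minus strand), chr3:51995881-51995910 (RPL29, minus strand) and chr15:63157463-63157492 (RPS27L, minus strand).

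A tract near the annotated start was common in the family. Such a tract need not be terminal: relative to that start it opened at -5 for RPL29 and at 2 for RPL32. A promoter entry was found for 62 of the 77 members, and 53 of these (85.5%) had a tract of at least 5 bases, against 25.2% of all 27305 genes with an entry. A tract of at least 8 bases was found in 44 members (71.0%), against 6.73% of all genes. RPS4X and RPS27L had none of at least 5 bases in this window, which says only that these letters are not there.

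The share of all counts that came from these genes is described without a test, and it overlapped between most of the groups. The 77 members held 4.03%, 3.84% and 3.88% of all counts in AG120_Nutlin replicates 1, 2 and 3, and 4.93%, 5.22% and 7.28% in vehicle_Nutlin replicates 1, 2 and 3. They held 3.81%, 4.59% and 4.98% in AG120 and 4.71%, 4.95% and 4.69% in vehicle replicates 1, 2 and 3. All AG120_Nutlin libraries were below all vehicle_Nutlin and all vehicle libraries, while vehicle_Nutlin replicate 3 stood above every other library and AG120 replicate 1 was the lowest of all. The means were 3.91% ± 0.10 in AG120_Nutlin, 5.81% ± 1.28 in vehicle_Nutlin, 4.46% ± 0.59 in AG120 and 4.78% ± 0.15 in vehicle (SD, n = 3). In bulk RNA a lower share from fewer cells of a kind and one from less of these mRNAs per cell cannot be told apart.

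**Figure D1:**
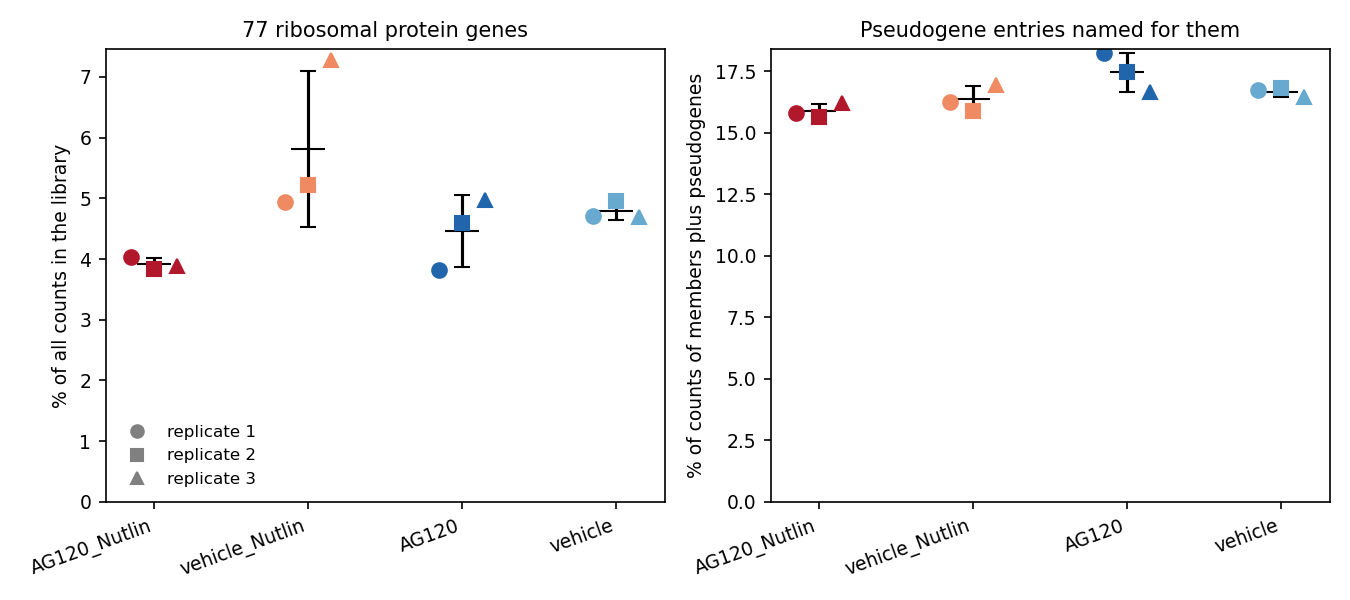
The left panel plots the counts of the 77 ribosomal protein genes as a percentage of all counts in each library, and the right panel the counts of pseudogene entries named for them as a percentage of the counts of both, with symbols for replicates and bars for mean ± SD (n = 3). The AG120_Nutlin libraries sit between 3.84% and 4.03%, below the vehicle_Nutlin libraries at 4.93% to 7.28%, while the pseudogene share stays between 15.6% and 18.3% in all 12 libraries.

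Libraries held 16840161 to 27499433 counts, with a median of 19221201, and no 2 libraries were identical. The p53 targets MDM2 and CDKN1A summed to 13423 to 13729 CPM (a normalised count relative to library size, scaled between libraries by trimmed mean of M values) in AG120_Nutlin and 10199 to 12885 in vehicle_Nutlin, against 574 to 638 in AG120 and 513 to 537 CPM in vehicle. Of 4 biliary markers KRT19 and KRT7 were abundant, at 1378 CPM or more and 470.2 CPM or more in every library. They did not move alike: KRT7 ran from 470 to 1078 CPM with Nutlin and 1496 to 1961 without, and KRT19 from 1962 to 3263 with Nutlin and 1378 to 2205 without. EPCAM was at 15.4 to 17.9 CPM with Nutlin and 47.3 to 61.6 without, and SOX9 at 72.3 to 117 and 78.4 to 96.7 CPM. The sum of the 4, mostly keratin, ran from 2556 to 2642 CPM in AG120_Nutlin, 3450 to 4429 in vehicle_Nutlin, 3473 to 4300 in AG120 and 3027 to 3169 in vehicle. Of the markers of other cells, the leukocyte genes PTPRC, CD3E, CD68 and MS4A1 summed to 0.118 CPM at most, and the endothelial genes VWF and CDH5 to 1.00 CPM at most. The fibroblast markers COL1A1, COL1A2, COL3A1, DCN and PDGFRB summed to 2.41 to 3.16 CPM in AG120_Nutlin and 2.91 to 5.29 in vehicle_Nutlin, against 38.6 to 43.4 in AG120 and 36.0 to 39.6 CPM in vehicle, with DCN at 0 in every library; their part in the results was not tested.

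Replicates were not equally close. The median SD of a member (log2 CPM) was 0.070 in AG120_Nutlin, 0.30 in vehicle_Nutlin, 0.20 in AG120 and 0.084 in vehicle. Each library was set against the mean of the other libraries of its group. In vehicle_Nutlin replicate 3, 70 of 76 members lay above that mean (median deviation 0.47), and in vehicle_Nutlin replicate 1, 3 did (median -0.33). In AG120 replicate 1, 11 did (median -0.27), and in AG120 replicate 3, 71 did (median 0.19). The same libraries deviated by transcript length across all genes, with Spearman correlations of -0.34, 0.32, 0.38 and -0.37 in that order (13510 genes, which are not independent), and members are short, with a median transcript of 705 bases against 2756.5 for all tested genes. The comparisons below are therefore also given without single libraries, and without vehicle_Nutlin replicates 2 and 3 and AG120 replicate 1 together (the 3 libraries, chosen with earlier results of these data known), where that changes them. Within their groups, vehicle_Nutlin replicate 2 and AG120 replicate 1 had the highest summed level of the untailed RNAs RMRP, RPPH1 and RN7SK, at 415 and 111 CPM. For the members, vehicle_Nutlin replicate 2 lay closer to the other libraries of its group (median -0.15) than replicate 1 did. Replicate 1 is the only vehicle_Nutlin library left without the 3, so values without them rest on the library with the lowest members of that group.

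Members spanned a wide range of levels. Set per kilobase of coding sequence, and averaged over the 12 libraries, the highest were RPS4X, a small-subunit protein encoded on the X chromosome (3543 CPM per kb), RPL41, the shortest member (3511), RPL13 (3243), RPLP1 of the acidic stalk that recruits elongation factors (3204) and RPS19, needed to mature the small subunit (2995). The order changed between groups: RPS19 stood at 3546 CPM per kb in AG120_Nutlin and 4437 in vehicle_Nutlin, against 1931 in AG120 and 2064 in vehicle. RPS4X stood at 3766, 5007, 2657 and 2740 CPM per kb in AG120_Nutlin, vehicle_Nutlin, AG120 and vehicle. RPL13 and RPLP1, next to each other in the order, were at 2823 and 2755 CPM per kb in AG120_Nutlin and at 2998 and 3366 in vehicle, so their order turned between groups.

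The lowest levels among tested members were those of RPL17 (1.12 CPM per kb), RPS10 (1.20), RPL36A (2.16), RPL26 (9.17) and RPL21 (21.4), although cells need every one of these proteins. These values are uncertain, because the counting could have given reads of members to processed pseudogenes or read-through entries. How reads that match several places were counted is not given. For RPL17 and RPL36A the pseudogene entries held 116 and 86 counts over the 12 libraries, beside 157 and 172 of the member. Why these levels were low was not tested. In all, 842 pseudogene entries carried the name of a member, 369 of them had counts, and they held 15.6% to 18.3% of the counts of members and pseudogenes together. For 9 members the pseudogene entries held more counts than the member itself, among them RPL39 (97.3% in pseudogene entries), RPS10 (94.9%), RPS3A (79.1%), RPL7 (72.6%), RPS7 (72.1%), RPL13A (66.9%), RPL24 (54.5%) and RPL23A (50.1%). For 42 members, RPS19, RPS4X, RPS20, RPS27, RPL32 and RPL11 among them, pseudogene entries held under 1%.

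The first comparison asked what Nutlin did to these genes in cells kept in vehicle. More members were higher than lower. RPS19, whose loss causes Diamond-Blackfan anaemia, had 1651, 1895 and 2244 CPM in vehicle_Nutlin replicates 1, 2 and 3 and 889, 942 and 863 CPM in the vehicle replicates. RPS4X had 3376, 3339 and 5135 CPM in vehicle_Nutlin and 2174, 2254 and 2059 CPM in vehicle. The lowest Nutlin library of RPS19 and of RPS4X was above the highest vehicle library, and for RPS4X vehicle_Nutlin replicate 3 was far above the other two. RPS19 was higher by 1.10 ± 0.15 (log2 fold change ± SE, adjusted p = 3.759e-05), which is 2.15-fold, and RPS4X by 0.87 ± 0.16 (adjusted p = 0.0004862).

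Of 76 members 27 were called higher and 1 lower (a call needs an adjusted p no higher than 0.05), while 26.8% of all 15691 genes were called higher and 27.1% lower. Over the family, 31 members had all 3 vehicle_Nutlin libraries above all 3 vehicle libraries and 2 had all 3 below, shares of 40.8% and 2.63%, against 28.3% and 30.9% of all genes. The median log2 fold change was 0.31 for members and -0.02 for all genes. After RPS19 and RPS4X the smallest adjusted p were those of RPS20, a head protein of the small subunit (0.76 ± 0.13), RPL34 (0.63 ± 0.14), RPL19 (0.57 ± 0.13), RPL29 (0.57 ± 0.14), RPS23, a protein of the decoding centre (0.62 ± 0.15), and RPL13A, known also for binding mRNA outside the ribosome (0.65 ± 0.16), with adjusted p = 0.0002268, 0.001893, 0.002353, 0.003531, 0.003944 and 0.004137 in that order. RPL34 had 275, 314 and 385 CPM in vehicle_Nutlin replicates 1, 2 and 3 and 192, 229 and 207 CPM in vehicle, without overlap. The only member called lower was RPL17 (-1.07 ± 0.42, adjusted p = 0.04406), at 0.371 to 0.479 CPM in vehicle_Nutlin and 0.566 to 1.13 CPM in vehicle, levels at which its counts are few.

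The marker genes and the MDM2-binding pair did not pass here. RPL32 had 382, 433 and 615 CPM in vehicle_Nutlin and 383, 418 and 373 CPM in vehicle (0.29 ± 0.15, adjusted p = 0.1197), so that the groups overlapped. RPS2, which takes part in mRNA entry on the small subunit, had 1120, 1169 and 1533 CPM in vehicle_Nutlin and 1549, 1541 and 1404 CPM in vehicle (-0.23 ± 0.12, adjusted p = 0.1254); its 2 lowest values were both Nutlin libraries. RPL5 stood at 840 ± 231 CPM in vehicle_Nutlin and 705 ± 29.3 CPM in vehicle (adjusted p = 0.192), and RPL11 at 369 ± 26.9 and 354 ± 16.7 CPM (adjusted p = 0.6059; mean ± SD, n = 3). Without vehicle_Nutlin replicate 3, 21 members were higher, all of them among the 27, 3 others were lower (RPS2, RPSA and RPS26), and the median was 0.11. Without the 3 libraries the median of members was 0.02. Without vehicle_Nutlin replicate 1, in contrast, 40 were higher and 0 lower, with a median of 0.43. Of all genes, 25.7% were higher and 26.3% lower in that fit, and 29.1% and 29.1% without vehicle_Nutlin replicate 3.

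For cells held in AG-120, the response to Nutlin contrasted other libraries than the first comparison did. Both came from 1 model of all 12 libraries with a shared estimate of the spread, so their calls are not independent. In AG-120 cells more members were lower than higher with Nutlin. RPS2 had 796, 767 and 804 CPM in AG120_Nutlin replicates 1, 2 and 3 and 1314, 1508 and 1464 CPM in AG120. RPSA, the laminin-receptor protein of the small subunit, had 341, 312 and 314 CPM in AG120_Nutlin and 588, 551 and 651 CPM in AG120. RPS15A had 12.2, 11.2 and 10.9 CPM in AG120_Nutlin and 23.5, 18.5 and 24.2 CPM in AG120. All 3 genes were separated without overlap, and their log2 fold changes were -0.86 ± 0.12 for RPS2 (adjusted p = 6.184e-05), -0.89 ± 0.19 for RPSA (adjusted p = 0.001321) and -0.95 ± 0.14 for RPS15A (adjusted p = 8.631e-05).

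In all 4 members were higher and 15 lower, while 27.0% of all genes were called higher and 28.8% lower, so both shares of the members were below those of all genes. All 3 AG120_Nutlin libraries lay above all 3 AG120 libraries in 5 members and below them in 26 (6.58% and 34.2%), against 35.1% of all genes above and 35.1% below. The median was -0.19 for members and 0.00 for all genes, and it was -0.065 for members without AG120 replicate 3. Besides these 3, the lower members with the smallest adjusted p were RPL23 (-0.48 ± 0.10), RPL4 (-0.49 ± 0.11), RPL14 (-0.46 ± 0.13), RPS7 (-0.51 ± 0.15) and RPL28 (-0.50 ± 0.15), with adjusted p = 0.001397, 0.002531, 0.008885, 0.01112 and 0.01202. RPL23, RPS7 and RPL11 are known to bind MDM2. RPL11 had 287, 287 and 263 CPM in AG120_Nutlin and 330, 333 and 373 CPM in AG120 (-0.31 ± 0.09, adjusted p = 0.01278), without overlap, whereas RPL5, its partner in the 5S particle, had 567, 549 and 570 CPM in AG120_Nutlin and 577, 696 and 699 CPM in AG120 (-0.23 ± 0.16, adjusted p = 0.2392). RPL32 was lower (-0.44 ± 0.15, adjusted p = 0.02228), at 274 ± 9.56 CPM in AG120_Nutlin and 371 ± 27.3 CPM in AG120 (mean ± SD, n = 3).

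The 4 members that were higher with Nutlin in AG-120 cells were RPS19, RPS4X, RPS20 and RPS27, and all 4 were also among the 27 higher in vehicle cells. RPS19 had 1549, 1535 and 1544 CPM in AG120_Nutlin and 652, 898 and 970 CPM in AG120 (0.88 ± 0.15, adjusted p = 0.0002321). RPS4X had 2982, 2966 and 2967 CPM in AG120_Nutlin and 1801, 2226 and 2262 CPM in AG120 (0.50 ± 0.16, adjusted p = 0.01604). RPS20 had 853, 832 and 839 CPM in AG120_Nutlin and 579, 647 and 696 CPM in AG120 (0.39 ± 0.13, adjusted p = 0.01729). The 3 AG120_Nutlin libraries of each were close together and above every AG120 library, and AG120 replicate 1 was the lowest of the 12 libraries for all 3 genes.

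RPS27, a zinc-finger protein of the small subunit that binds MDM2, had the largest adjusted p of the 4. It had 82.0, 74.2 and 62.9 CPM in AG120_Nutlin and 30.0, 36.9 and 66.3 CPM in AG120 (0.72 ± 0.25, adjusted p = 0.02765), where AG120 replicate 3 overlapped the Nutlin libraries. In vehicle cells it had 82.1, 119 and 90.7 CPM with Nutlin and 47.0, 66.0 and 61.7 CPM without (0.74 ± 0.25, adjusted p = 0.02435), without overlap. No member was lower in both responses, 23 were called higher in vehicle cells only, 15 lower in AG-120 cells only and 33 in neither. Shares of all genes in these classes are not given, so nothing is concluded from these counts. Whether the responses differ was tested separately and is given below.

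The 15 lower calls rested partly on single libraries. There were 9 without AG120_Nutlin replicate 2, 9 without AG120_Nutlin replicate 3 and 6 without AG120 replicate 3. Without vehicle_Nutlin replicate 3 there were 31, which held all 15. Without the 3 libraries the median of members was -0.26. The 4 higher calls numbered 2 without AG120_Nutlin replicate 1 and 1 without AG120 replicate 1. Over the fits without single libraries 24.1% to 33.1% of all genes were called lower and 23.2% to 31.1% higher.

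**Figure D2:**
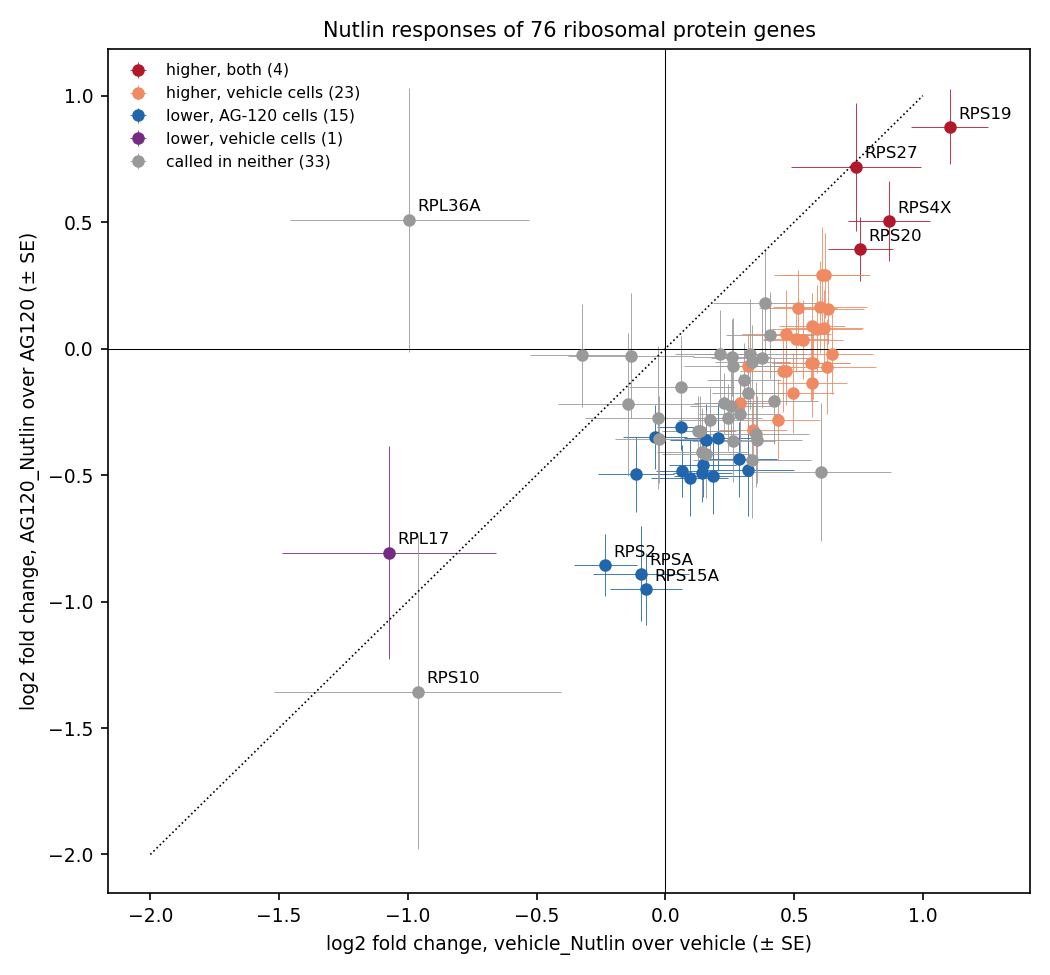
Each point is 1 of 76 ribosomal protein genes, with its log2 fold change for Nutlin in vehicle cells on the horizontal and in AG-120 cells on the vertical axis, bars of ± SE, a dotted line of equal change, and colours for the calls in each response. RPS19, RPS27, RPS4X and RPS20 lie to the upper right, RPS2, RPSA and RPS15A are at -0.86 to -0.95 with AG-120 and at -0.23 to -0.08 without it, and RPL17, RPS10 and RPL36A, at about 1 CPM or less, have the widest bars.

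**Figure D3:**
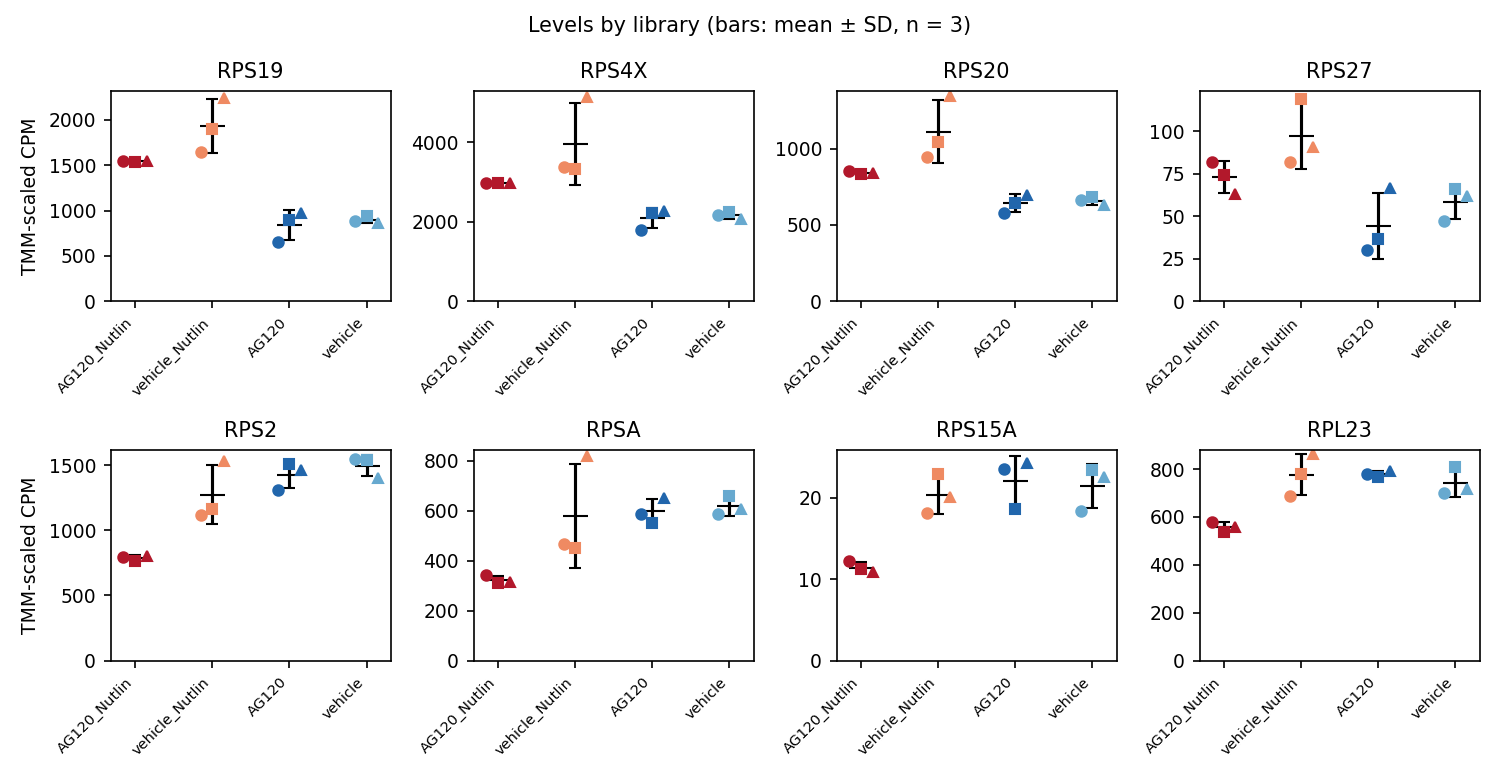
TMM-scaled CPM of 8 members in each library, by group, with symbols for replicates 1 (circle), 2 (square) and 3 (triangle) and bars for mean ± SD (n = 3); every axis starts at 0. RPS19, RPS4X and RPS20 are higher in all 6 Nutlin libraries than in all 6 others, while RPS2, RPSA, RPS15A and RPL23 are lowest in the 3 AG120_Nutlin libraries.

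The third comparison, of AG120 with vehicle, gave no call among the members. With edgeR 0 members were called higher and 0 lower, while 0.0510% of all genes were called higher and 0 lower, and 1 member had an unadjusted p under 0.05. DESeq2 called 0 members, and 0.542% of all genes higher and 0.147% lower. The median log2 fold change of members was -0.08, and 65 of 76 were negative. RPS2 had 1428 ± 102 CPM in AG120 and 1498 ± 81.4 CPM in vehicle, RPL32 371 ± 27.3 and 391 ± 23.6, RPL5 658 ± 69.9 and 705 ± 29.3, and RPL11 345 ± 24.3 and 354 ± 16.7 CPM (mean ± SD, n = 3), each with overlapping libraries and an adjusted p of at least 0.913. The median rested on single libraries: it was -0.0045 without AG120 replicate 1, -0.16 without AG120 replicate 3, -0.043 without vehicle replicate 2 and -0.0034 without the 3 libraries. With an offset that removes the dependence on transcript length in each library it turned to 0.01.

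The fourth comparison, of AG-120 with vehicle among Nutlin-treated cells, held the most uniform difference. It uses the Nutlin libraries of both earlier comparisons, so its values are not independent of theirs. RPL32 had 280, 263 and 279 CPM in AG120_Nutlin replicates 1, 2 and 3 and 382, 433 and 615 CPM in vehicle_Nutlin. RPL29 had 423, 387 and 405 CPM in AG120_Nutlin and 556, 621 and 848 CPM in vehicle_Nutlin. RPS15A had 12.2, 11.2 and 10.9 CPM in AG120_Nutlin and between 18.1 and 22.9 CPM in vehicle_Nutlin. The groups did not overlap for any of these genes, and vehicle_Nutlin replicate 3 was the highest library for RPL32 and RPL29.

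Of 76 members 30 were lower and 0 higher, a share of 39.5% lower, while 1.93% of all genes were called lower and 0.433% higher (edgeR). DESeq2 called 55 members lower and 0 higher, and 4.08% of all genes lower and 1.68% higher. The median log2 fold change was -0.59 for members and -0.01 for all genes, and 75 of 76 members were negative. In 68 members (89.5%) all 3 AG120_Nutlin libraries lay below all 3 vehicle_Nutlin libraries, as did 14.1% of all genes. Both subunits took part, with 18 of 46 large-subunit members lower (median -0.57) and 12 of 30 small-subunit members lower (median -0.68).

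The smallest adjusted p were those of RPS15A (-0.83 ± 0.14), RPS2 (-0.69 ± 0.12), RPL32 (-0.80 ± 0.15), RPL29 (-0.74 ± 0.14), RPL27A (-0.70 ± 0.13), RPL14 (-0.66 ± 0.13), RPL12, a stalk-base protein (-0.67 ± 0.13), and RPL3, next to the peptidyl transferase centre (-0.66 ± 0.13), with adjusted p between 0.01191 and 0.02304. RPL11 was lower (-0.40 ± 0.09, adjusted p = 0.04295), and RPL5 had 567, 549 and 570 CPM in AG120_Nutlin and 708, 705 and 1107 CPM in vehicle_Nutlin (-0.58 ± 0.16, adjusted p = 0.07594), without overlap. RPS19 (-0.32 ± 0.15), RPS4X (-0.41 ± 0.16), RPS20 (-0.40 ± 0.13) and RPS27 (-0.41 ± 0.25), the 4 that were higher in both Nutlin responses, did not pass here, with adjusted p = 0.2489, 0.1813, 0.1131 and 0.3692.

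Both the size and the count of calls changed with the libraries in the fit. Without the 3 libraries the median of members was -0.32. Without vehicle_Nutlin replicate 3, 35 members were lower (all 30 among them) and the median was -0.42, while 2.99% of all genes were lower. With the length offset, 24 members were lower (22 shared) with a median of -0.41, while 2.13% of all genes were lower. The count was 1, 0 and 0 without AG120_Nutlin replicate 1, 2 or 3, where 0.453%, 0.35% and 0.447% of all genes were lower. It was 49 without vehicle_Nutlin replicate 1 (median -0.69), where 3.84% of all genes were lower. It was 8 and 14 without AG120 replicate 2 or 3, and 9, 8 and 8 without vehicle replicate 1, 2 or 3. In those fits 1.04% to 1.27% of all genes were lower. When only the groups compared were fitted it was 0, and 0.103% of all genes were lower. Calls over all genes thus changed with the libraries in the fit too. Among 766 other short genes, of at most 1000 bases, the median log2 fold change was -0.18. Mitochondrially encoded genes, which take up counts in the same libraries, held 4.11% to 4.42% of counts in AG120_Nutlin and 1.71% to 3.45% in vehicle_Nutlin, lowest in replicate 3, against 1.32% to 1.74% in AG120 and 1.02% to 1.35% in vehicle; their part and that of transcript length in the call of single members was not tested.

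**Figure D4:**
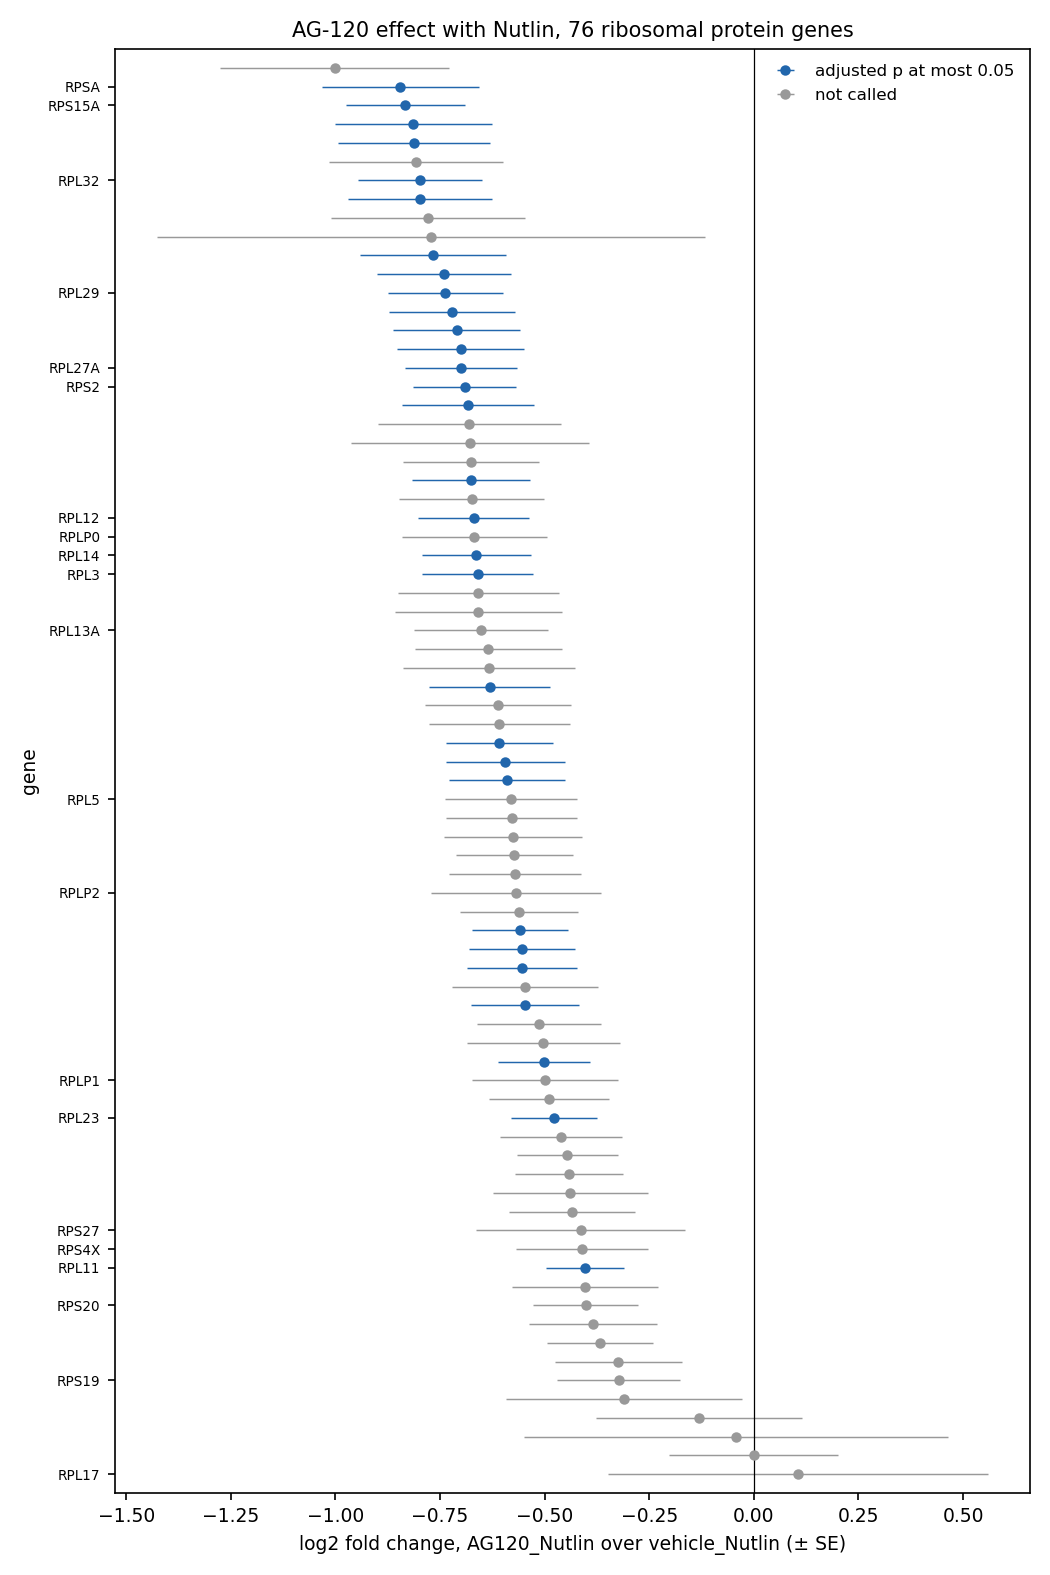
Log2 fold change (± SE) of AG120_Nutlin over vehicle_Nutlin for each of the 76 tested members, ordered from the lowest at the top, with called members in blue and names on some of the members described in the text. All but RPL17 are at or below 0, the median is -0.59, and the 30 called members run from -0.84 (RPSA) to -0.40 (RPL11).

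Whether AG-120 changed the Nutlin response was tested as an interaction. It leaned to lower values in AG-120 cells without any member passing. With edgeR 0 members were higher and 0 lower, while 0.331% of all genes were called lower and 0.0319% higher. Before adjustment 45 members had a p under 0.05 (edgeR), all of them lower. No share of all genes is given at that level and the members share libraries, so nothing is concluded from this count. DESeq2 called 3 members and 1.26% of all genes lower. The median was -0.48 for members and -0.01 for all genes. RPS15A (-0.88 ± 0.20, adjusted p = 0.1013), RPS2 (-0.62 ± 0.17, adjusted p = 0.198), RPL32 (-0.72 ± 0.21, adjusted p = 0.2203), RPL11 (-0.37 ± 0.13, adjusted p = 0.3234) and RPL5 (-0.48 ± 0.22, adjusted p = 0.4528) did not pass, and RPS19 (-0.23 ± 0.21, adjusted p = 0.708) and RPS27 (-0.02 ± 0.35, adjusted p = 0.9889) had smaller differences. Without vehicle_Nutlin replicate 3, 7 members were lower, among them RPL3, RPL4, RPL29, RPL32, RPS2 and RPS15A, while 1.29% of all genes were lower. Without the 3 libraries the median of members was -0.33.

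Each member was also set against the median member of its library, which takes out a change that all members share. On this scale RPS19 stood 1.79 ± 0.16 above the median member in the 6 Nutlin libraries and 0.92 ± 0.08 in the 6 others (log2, mean ± SD). RPS4X stood at 2.77 ± 0.15 and 2.22 ± 0.11, RPS2 at 1.01 ± 0.07 and 1.68 ± 0.15, and RPSA at -0.23 ± 0.19 and 0.41 ± 0.14, with and without Nutlin. In none of these 4 did a Nutlin library overlap one without. In all, 6 members, among them RPS19, RPS4X, RPS20, RPL36 and RPL34, were above all 6 libraries without Nutlin in all 6 with it, and 11 members, RPS2, RPSA, RPS15A, RPL28, RPS7, RPL23, RPL4, RPS3, RPL35, RPS27A and RPL27A, were below; these genes were listed after their values were seen. They make up 7.89% and 14.5% of the 76 members, against 9.09% and 22.1% of all genes set against the same median member. For other genes this scale does not take out a shared change but adds the shift of the median member. The shares are therefore not alike, and nothing is concluded from them.

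**Figure D5:**
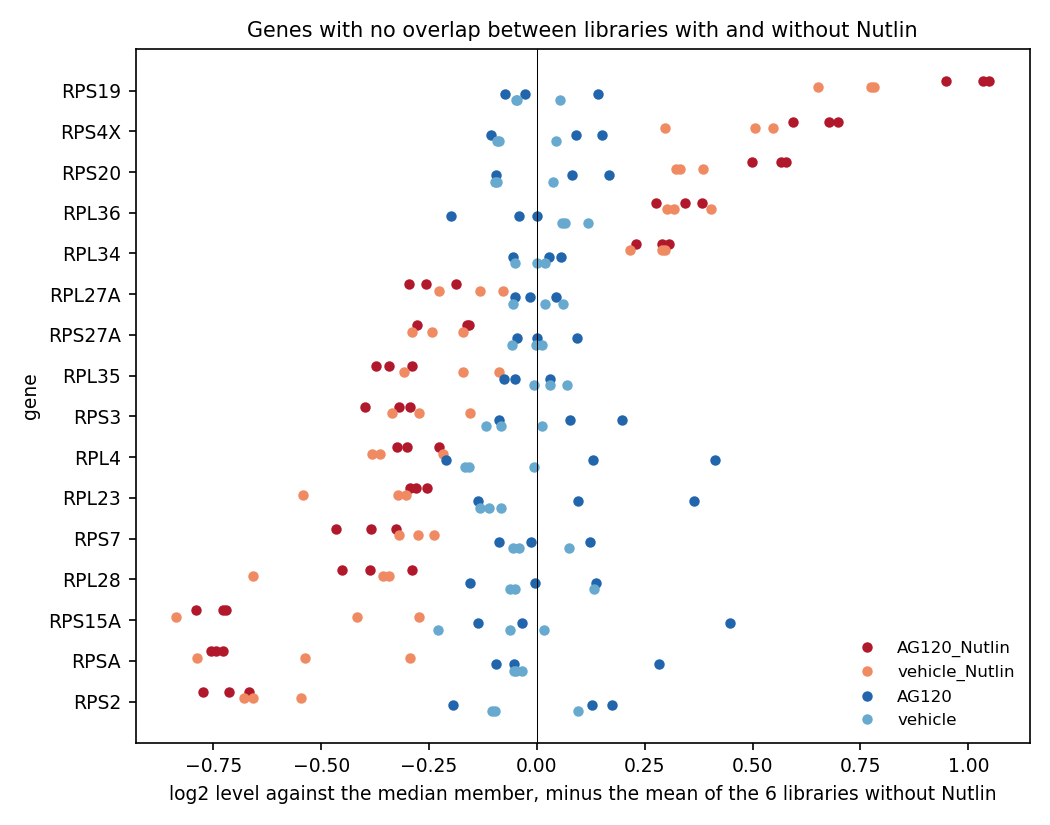
Log2 level against the median member of the same library, minus the mean of the 6 libraries without Nutlin, for members named in the text with no overlap between libraries with and without Nutlin; each point is a library, coloured by group. RPS19, RPS4X and RPS20 lie farthest to the right with Nutlin and RPS2, RPSA and RPS15A farthest to the left. Only members without overlap are drawn, so AG120_Nutlin and vehicle_Nutlin lie on the same side by selection.

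Medians of members with a long tract were set beside those of members with a short one or none, and their difference was not tested. Members with tracts between these lengths were left out. With Nutlin in vehicle cells the median log2 fold change was 0.32 for the 44 members with at least 8 bases and 0.29 for the 9 with under 5; with Nutlin in AG-120 cells it was -0.14 and -0.09; and with AG-120 among Nutlin-treated cells it was -0.59 and -0.44. The 825 other tested genes with a tract of at least 8 bases had medians of -0.03, -0.02 and -0.01 in the same comparisons. The 9 members under 5 bases include RPS4X, and annotated starts can miss the start used in these cells.

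The proteins that bind MDM2 and the genes mutated in Diamond-Blackfan anaemia, a failure of red cell production with p53 activation, are subsets of the members. Their counts stand beside 26.8% of all genes called higher with Nutlin in vehicle cells, 27.0% higher and 28.8% lower in AG-120 cells, and 1.93% lower with AG-120 among Nutlin-treated cells, and in the Nutlin responses no subset is read as differing from all genes. Of 15 MDM2-binding members 5 were higher with Nutlin in vehicle cells (RPL6, RPL37, RPS14, RPS20 and RPS27). In AG-120 cells 2 were higher (RPS20 and RPS27) and 4 lower (RPL11, RPL23, RPS3 and RPS7), and with AG-120 among Nutlin-treated cells 6 were lower, the same 4 with RPL6 and RPS14. Of 17 tested anaemia genes 6 were higher with Nutlin in vehicle cells (RPS19, RPS24, RPS27, RPL15, RPL18 and RPL27), 2 higher and 2 lower in AG-120 cells (RPS19 and RPS27, RPL11 and RPS7), and 4 lower with AG-120 among Nutlin-treated cells (RPL11, RPL35, RPS7 and RPS24). The stalk proteins RPLP0, RPLP1 and RPLP2 had log2 fold changes of -0.67, -0.50 and -0.57 there, with a median of -0.57 near that of all members, and none passed in any comparison: their medians were 0.21 and -0.15 in the Nutlin responses in vehicle and AG-120 cells, and -0.27 for AG-120 without Nutlin.

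Some pseudogene entries with many counts had values close to those of their members, and others did not. RPS2P5 had log2 fold changes of -0.11, -0.79 and -0.68 for Nutlin in vehicle cells, Nutlin in AG-120 cells and AG-120 with Nutlin, beside -0.23, -0.86 and -0.69 for RPS2. RPL13AP5, at a mean of 1394 CPM in AG120_Nutlin and 2229 in vehicle_Nutlin, had 0.64, -0.09 and -0.68, beside 0.65, -0.02 and -0.65 for RPL13A. RPL6P27 had -0.35 for AG-120 with Nutlin and did not pass, beside -0.50 for RPL6, which did. With Nutlin in AG-120 cells RPL15P3 had -0.13, beside 0.16 for RPL15, and RPL41P1 had -0.27, beside -0.02 for RPL41. Of 103 tested pseudogene entries 19 were higher and 1 lower with Nutlin in vehicle cells, where 26.8% of all genes were higher and 27.1% lower. In AG-120 cells 5 were higher and 13 lower with Nutlin, beside 27.0% and 28.8% of all genes. Each of these shares was below that of all genes. With AG-120 among Nutlin-treated cells 0 were higher and 10 lower, where 0.433% of all genes were higher and 1.93% lower. When these counts were added to the members before the fit, an alternative chosen after seeing the data, 27 members were lower in the last of these.

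Close copies outside the member rule followed courses of their own. RPS27L, a paralogue of RPS27 and a known p53 target, had 174 CPM in AG120_Nutlin and 184 CPM in vehicle_Nutlin, against 71.6 CPM in AG120 and 70.1 CPM in vehicle (means, n = 3), and was higher with Nutlin in vehicle cells (1.40, adjusted p = 1.547e-06) and in AG-120 cells (1.28, adjusted p = 3.001e-06). RPL22L1, the paralogue of RPL22, was lower in both (-0.70, adjusted p = 0.004665, and -1.17, adjusted p = 0.0001162) and lower with AG-120 among Nutlin-treated cells (-0.87, adjusted p = 0.02914). RPL39L, a copy best known from testis, was lower with Nutlin in vehicle cells (2.37 CPM in vehicle_Nutlin, against 6.20 CPM in vehicle) and in AG-120 cells (2.66 CPM in AG120_Nutlin, against 5.36 CPM in AG120), and RPL7L1 was lower in vehicle cells (-0.46). RPL36AL and RPL26L1 were at 59.2 and 24.8 CPM in AG120_Nutlin and 67.4 and 32.4 CPM in vehicle and passed in no comparison.

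Other TOP mRNAs and subunit components were compared with the members. FAU, which encodes RPS30 within a fusion protein, was higher with Nutlin in vehicle cells (0.54, adjusted p = 0.0342), and GNB2L1, which encodes the RACK1 protein of the small subunit, was lower with Nutlin in AG-120 cells (-0.39, adjusted p = 0.0435). Of 14 tested TOP-type translation genes 7 were higher and 4 lower with Nutlin in vehicle cells, 0 and 5 in AG-120 cells, and 0 and 3 with AG-120 among Nutlin-treated cells, with medians of 0.23, -0.21 and -0.41. Of all genes 26.8% were higher and 27.1% lower in the first, 27.0% and 28.8% in the second, and 0.433% and 1.93% in the third, so the lower counts in the Nutlin responses are near the shares of all genes. EEF2, the translocase, was at 5785 CPM in AG120_Nutlin, 6931 in vehicle_Nutlin, 5211 in AG120 and 4374 CPM in vehicle and was higher with Nutlin in vehicle cells (0.66). EIF3H was higher there too (0.62), while HNRNPA1 (-0.97), NAP1L1 (-0.68) and NPM1 (-0.66) were lower, and the last 3 were the ones lower with AG-120 among Nutlin-treated cells (-0.53, -0.44 and -0.46).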

How the data were processed

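Gene expression was measured by poly(A) RNA sequencing with paired reads of 150 bases, per the labels' protocols. The authors deposited raw counts per gene entry, as whole numbers without normalization, and the 12 libraries had unequal totals. Per the submitters' processing notes, Partek, STAR, HTSeq, DESeq2 and hg19 were used; versions, strand and the treatment of reads that match several places are not given in the sources used here. Intervals on counts would cover counting error only, since the reads carry no molecular identifiers.

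Counts were fitted in R 4.3.3 with edgeR 4.0.16 (glmQLFit, glmQLFTest): filterByExpr kept 15691 of 55773 entries, libraries were scaled by TMM, all 12 libraries entered 1 model with a term per group, and Benjamini-Hochberg adjustment ran over all genes tested, with calls at 0.05 or below. CPM values are TMM-scaled; log2 CPM used a prior count of 2. Coding and transcript lengths came from GENCODE 29 and start-site sequences from RefSeq (GRCh38.p14). The procedure was tested on simulated data. Same-numbered libraries did not deviate together (correlations from -0.22 to 0.12), so replicate numbers were not used as pairs. DESeq2 1.42.0, other scalings and filters, a length offset and fits without single libraries were alternatives.

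The members, gene lists and the rule for naming genes were chosen with earlier results of these data known. The rule takes, in each comparison, the 8 called members with the smallest adjusted p in each direction, RPL32, RPS2, RPL5 and RPL11 throughout, the 5 highest and 5 lowest per kilobase, and up to 4 genes of each list. A few members and listed genes enter the fits and counts but are not reported here by name.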

Additional observations from a re-analysis of the deposited data

How the results depend on the processing

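Over 23 alternatives (22 for the interaction), the members' median kept its sign in every comparison but one: for AG-120 without Nutlin it reversed to 0.0139 with the length offset. With Nutlin in vehicle cells higher calls ran from 18 to 40; the median was 0.022 without the 3 libraries and 0.105 to 0.427 without single libraries. Lower calls there (1 in the fit as reported) were 0 with DESeq2, no filter, 1 CPM in 3 libraries, the replicate block or only the groups compared, 2 with library totals, 3 with the length offset, 9 without the 3 libraries and 0 to 3 without single libraries. With Nutlin in AG-120 cells lower calls were 25 with no filter, 30 with only the groups compared, 43 without the 3 libraries, 24 with the length offset and 6 to 31 without single libraries, and higher calls 1 to 6 without single libraries. With AG-120 among Nutlin-treated cells lower calls were 55 with DESeq2, 62 with no filter, 12 with the replicate block, 0 with only the groups compared, 47 without the 3 libraries and 0 to 49 without single libraries, and the median was -0.32 without the 3 libraries, -0.41 with the length offset and -0.69 to -0.42 without single libraries. The interaction gave 3 lower calls with DESeq2, 13 with no filter and 0 to 7 without single libraries. The share of all genes called lower moved with the fit too. With Nutlin in vehicle cells it was 30.4% with library totals and 26.6% with the length offset. With Nutlin in AG-120 cells it was 15.7% with no filter, 33.7% with only the groups compared and 28.9% with the length offset. With AG-120 among Nutlin-treated cells it was 4.08% with DESeq2 and 2.29% with no filter. It was 1.13% there with the replicate block and 0.103% with only the groups compared. For the interaction it was 1.26% with DESeq2 and 0.686% with no filter. Why the counts and shares moved was not tested. The fit without the 3 libraries holds 1 vehicle_Nutlin library, which is taken to vary as the other groups do.

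The members' mean share of counts was 4.25% in AG120_Nutlin and 5.04% in vehicle with protein-coding counts as the denominator, and 4.65% in AG120_Nutlin, 5.40% in AG120 and 5.74% in vehicle with pseudogene entries added. RPS19 was called higher with Nutlin in all 23 alternatives in both backgrounds, and RPS4X and RPS20 in all 23 in vehicle cells; in AG-120 cells RPS4X was called in 22, RPS20 in 21 and RPS27 in 19. Of all values of named members under these alternatives, 956 stayed on the same side of the threshold (many of them not called in either fit), 77 lost a call and 20 gained one. With the replicate block 24 members were higher with Nutlin in vehicle cells, and 4 higher and 14 lower in AG-120 cells; the numbers are not shown to pair libraries. Depth limits RPL17, RPS10 and RPL36A, at about 1 CPM or less.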

Other observations

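Genes that act on ribosomal proteins were mostly lower with Nutlin. The counts of called genes here stand beside 26.8% of all genes higher and 27.1% lower with Nutlin in vehicle cells, 27.0% and 28.8% in AG-120 cells, and 0.433% and 1.93% with AG-120 among Nutlin-treated cells. Of 11 tested chaperones and loaders of ribosomal proteins 7 were lower and 1 higher with Nutlin in vehicle cells, and 8 lower and 1 higher in AG-120 cells (medians -0.45 and -0.72; all genes -0.02 and 0.00). MRTO4, which places the stalk precursor, had log2 fold changes of -0.69 and -1.04 in vehicle and AG-120 cells, HEATR3, which carries RPL5, -0.80 and -0.76, and BCCIP, which binds RPL23, -0.81 and -0.75. MRTO4 (-0.57) and RPF2 (-0.57), which loads the 5S particle, were lower with AG-120 among Nutlin-treated cells. Of 19 regulators of mTORC1 and of TOP mRNAs 7 were higher and 4 lower in vehicle cells and 6 higher and 3 lower in AG-120 cells. The higher ones include the p53 targets SESN1 (3.49 and 3.29), SESN2 (2.46 and 2.44), PRKAB1 (2.47 and 2.42) and DDIT4 (1.5 and 1.37), which restrain mTORC1, and the lower ones include the translation repressor EIF4EBP1 (-1.44 and -1.87). MYC, a transcription factor of ribosomal protein genes, had 40.8 CPM in AG120_Nutlin, 97.0 in vehicle_Nutlin, 168 in AG120 and 202 CPM in vehicle, and was lower with AG-120 among Nutlin-treated cells (-1.25, edgeR adjusted p = 0.0008987).

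Mitochondrial ribosomal protein genes were called with Nutlin in both directions, each in a smaller share than all genes: of 74 tested, 18 were higher and 11 lower with Nutlin in vehicle cells, 14 higher and 14 lower in AG-120 cells, and 3 lower with AG-120 among Nutlin-treated cells, where their median was -0.21 and that of the cytosolic members -0.59. MRPL27 (1.63 and 1.72), MRPL39 (1.27 and 1.32) and MRPL49 (1.36 and 1.30) were higher in both Nutlin responses, and MRPL19 (-0.71 and -0.91) lower in both. Of 13 snoRNA host genes, many of them TOP transcripts, 3 were higher and 3 lower in vehicle cells and 2 and 3 in AG-120 cells, also smaller shares than those of all genes, with SNHG3 (-2.38 and -1.59) and SNHG1 (-1.76 and -0.97) lower and SNHG8 (0.93 and 0.53) higher in both. Of 13 mitochondrially encoded genes 8 were higher in vehicle and 11 in AG-120 cells. RMRP, RPPH1 and RN7SK, RNAs without a poly(A) tail, summed to 3.01 to 85.9 CPM in AG120_Nutlin, 2.14 to 415 in vehicle_Nutlin, 1.37 to 111 in AG120 and 1.00 to 5.64 CPM in vehicle, and their part in these values was not tested.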
